A study of Drosophila melanogaster with 12 samples.

Results

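S2 is an established line of Drosophila melanogaster cells that was derived from embryos and resembles hemocytes, the blood cells of the fly. The baseline transcriptome of control S2 cells was taken from 2 of the 12 samples of the series, the RNA-seq libraries of control replicates 1 and 2, which were chosen by their labels and not by any measured value. The control cells carried an empty plasmid according to the labels and were treated with dsRNA complementary to GFP (30 µg per well for 48 h at 28 °C). They were compared with 3 other groups of 2 RNA-seq libraries, which all received dsRNA against BRM, the ATPase of the SWI/SNF chromatin remodelers. BRM-depleted cells carried the same empty plasmid, and the recBRM-V5 and recBRM-K804R-V5 cells were lines stably transfected with a V5-tagged wild-type BRM or an ATPase mutant of it under a metallothionein promoter. Copper sulfate was given to induce the recombinant proteins in the final 24 h, and neither the labels nor the methods say whether the control cells received it. The remaining 4 samples were a ChIP-seq of endogenous BRM, with 2 IP and 2 Input samples. The labels call the replicates biological, and with 2 per group the p-values rest on that spread.

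Hemocytes of the fly include plasmatocytes, which engulf microbes and dead cells and secrete much of the basement membrane, crystal cells, which carry the prophenoloxidases of melanization, and lamellocytes, which encapsulate parasites. A cell line keeps a stable program in which housekeeping genes and the genes of its own lineage are transcribed, whereas genes of other lineages stay silent, in part through Polycomb group repression. Signalling pathways need ligands, receptors and intracellular components. A cell that makes both the receptor and the intracellular components can respond to a ligand that other cells secrete.

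The control libraries held 9134692 and 8158092 counts in 12986 genes. Levels are given as counts per 1000000 counts of the library (CPM), which also depend on transcript length. Genes within a list are therefore ordered by their level per length, the mean of counts per kb of merged exons, scaled to a sum of 1000000 per library (TPM-like level), and medians and classes of CPM describe shares of the library. A gene was taken as expressed at 1 CPM or more in both libraries, which corresponds to 9.13 and 8.16 counts, and as silent at this depth (at the floor) with at most 3 counts in each library. The limit that a count of 0 allows was 0.328 CPM in replicate 1 and 0.368 CPM in replicate 2.

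Control S2 cells expressed 7639 of the 12986 genes (58.8%), and 4257 genes (32.8%) were at the floor, 2316 of them with no count in either library. The other 1090 genes (8.39%) lay between. The levels fell into separate low and high populations in both libraries, as the histogram of log2 CPM shows. The expressed genes had a median of 44.5 CPM, a lower quartile of 15.9 CPM and an upper quartile of 117 CPM. The median was 43.8 CPM in replicate 1 and 44.9 CPM in replicate 2.

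**Figure D1:**
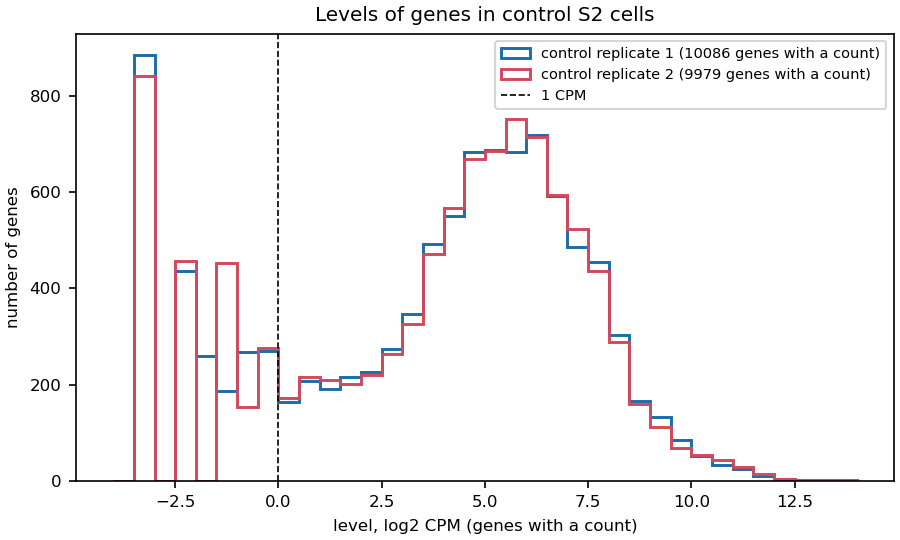
Number of genes (y axis) by level in log2 CPM (x axis, bins of 0.5) in control replicates 1 and 2, for the 10086 and 9979 genes with a count. Both libraries have a group of genes below the dashed line at 1 CPM and a broad peak of expressed genes around their median of 44.5 CPM.

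A small part of the genes took a large part of the counts. The 147 genes at 1000 CPM or more (1.13% of genes) took 30.2% of the counts in replicate 1 and 31.1% in replicate 2, and 50% of the counts were reached with 483 and 462 genes. The 10 most abundant genes of each library took 7.66% (95% Wilson interval 7.65 to 7.68%) and 6.77% (6.76 to 6.79%), intervals that cover counting error only, so that the libraries differed by more than counting error. The median coefficient of variation between the replicates (SD over mean, as a fraction) was 0.0919 at 100 to 1000 CPM. The counting SD (1 over the square root of the mean count) had a median of 0.0245 there. At 1 to 10 CPM the 2 values were 0.171 and 0.166. The median of SDs from 2 libraries lies below the underlying SD, so the measures are not alike. The spread of the high genes exceeded counting error, and whether counting error covered that of the low genes cannot be read from these values.

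The most abundant transcripts came from translation, the basement membrane, the cytoskeleton and the mitochondrial genome. The highest mean CPM was that of FBgn0000556 (15296 and 15519 CPM in replicates 1 and 2), an identifier without a symbol in the annotations used here, as were FBgn0040813 (5264 and 3686 CPM) and FBgn0261619 (3758 and 3906 CPM), also among the first 15. RpL5, a protein of the large ribosomal subunit, had 16011 and 11090 CPM and was the highest in replicate 1, and eEF2, the translocase of translation elongation, had 8682 and 7840 CPM. LanA and LanB1, chains of laminin, had 7702 and 6472 CPM and 4009 and 3518 CPM. The mitochondrial mt:CoI and mt:CoIII, subunits of cytochrome c oxidase, had 5482 and 4590 CPM and 3504 and 3050 CPM. Act5C, a cytoplasmic actin whose reads may be shared with other actin genes, had 3203 and 3910 CPM, and Idgf6, a secreted chitinase-like protein, had 3220 and 3792 CPM. RpS3A and RpL10 completed the 15 with the collagen IV genes described below.

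Per length the order changed, and 13 of the first 15 genes with a known length encoded ribosomal proteins. The identifiers without a symbol, FBgn0000556 among them, have no length and were not ranked. RpL41 led with 18984 and 11022 TPM-like units, before RpL21 (12689 and 8430), RpL39 (13345 and 5760), mt:CoIII (10237 and 8675) and RpL5 (9623 and 6488). LanA, which was the fourth by CPM, was only number 96 per length, since its exons span 11690 bases. Of 86 cytoplasmic ribosomal protein genes in the table, 82 were expressed and 77 had 100 CPM or more, with a median over all 86 of 1128 CPM beside 8.31 CPM over all genes. Together they held 10.8% and 12.8% of the counts.

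The control replicates differed in many ribosomal protein genes. Of 80 with at least 10 CPM in both libraries, 21 were more than 2-fold apart, against 12 of 2091 other genes of at least 100 CPM (0.574%). The log2 differences (replicate 2 minus replicate 1) ran from -1.17 for RpL39 (1667 and 739 CPM) to 1.99 for RpL8 (284 and 1129 CPM), and RpL26 (244 and 957 CPM) and RpL35A (109 and 358 CPM) were among the 5 largest rises. The other extremes were RFeSP, the iron-sulfur subunit of mitochondrial complex III (11.6 and 42.8 CPM), and awd, a nucleoside diphosphate kinase (86.6 and 280.2 CPM), on the high side, and lncRNA:CR43264, CG43103, Nop10 and CG6610, all with log2 differences between -1.15 and -1.03, on the low side.

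Over all 7639 expressed genes the log2 CPM of the replicates correlated with r = 0.984 (rho = 0.985, across genes, which are not independent), and 217 genes (2.84%) were more than 2-fold apart. The replicates differed far beyond counting error, with a chi-square of 38.04 per degree of freedom. The difference moved with the base composition of the transcripts. Over 5868 genes, the log2 difference correlated with the GC content of the exons with r = 0.574, a description over genes that share both libraries. The fifth of genes with the lowest GC content (median 42.6%) had a median log2 difference of -0.26 and the fifth with the highest (median 53.5%) one of 0.31. In the other groups r was -0.50 (BRM-depleted), 0.63 (recBRM-V5) and -0.39 (recBRM-K804R-V5). The part of GC content in the comparisons below was not tested.

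**Figure D2:**
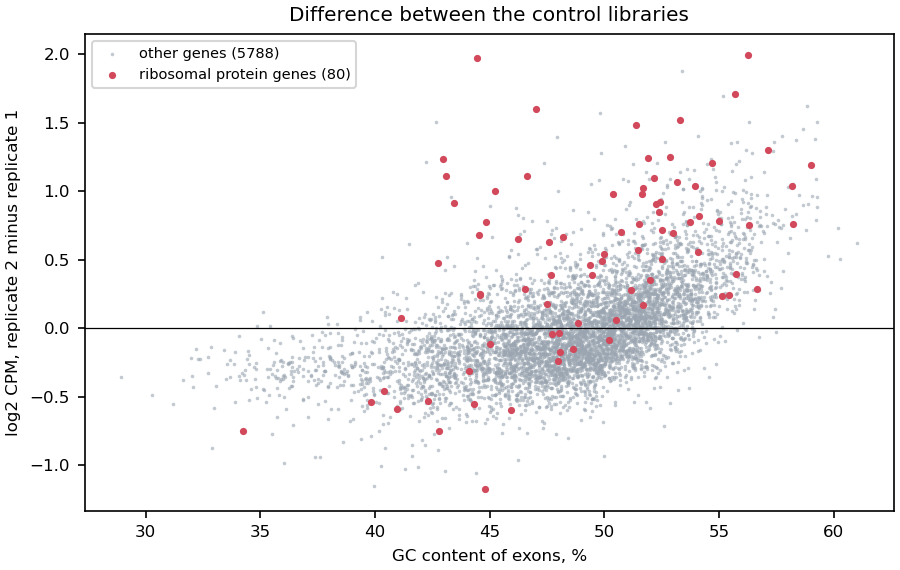
Difference between the control libraries in log2 CPM (y axis, replicate 2 minus replicate 1) against the GC content of the exons in percent (x axis) for 5868 genes of at least 10 CPM in both. Points of 5788 other genes (grey) rise with GC content (r = 0.574 over all points), and the 80 ribosomal protein genes (red) spread from -1.17 to 1.99.

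The lineage of the line was checked with a short set of markers per cell type. Of 10 hemocyte markers all were expressed, with summed levels of 8770 and 12720 CPM. Most of the sum came from the collagen IV genes Col4a1 (3316 and 5468 CPM) and vkg (2842 and 4920 CPM). The lowest was NimC1 with 2.85 and 1.84 CPM. The set did not hold gcm, gcm2 and NimC2 of the wider hemocyte list, which were at the floor. The fat body markers summed to 0 and 0.123 CPM, and both eye markers were at 0 in both libraries. Of the other marker sets, 2 of 3 neuron markers were expressed (summed 100.8 and 87.4 CPM), 1 of 3 muscle markers (55.8 and 65.3 CPM), both crystal cell markers (4.49 and 8.09 CPM) and 2 of 3 lamellocyte markers (16.7 and 24.9 CPM), and the germline marker bam was not. Of 152 lineage genes in the lists, 67 were expressed and 65 were at the floor. Among 19 pan-hemocyte and plasmatocyte genes, 16 were expressed, 13 of them at 100 CPM or more, and the median was 320.2 CPM.

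Per length this group was led by the basement membrane genes SPARC (2269 TPM-like units), Col4a1 (1615) and vkg (1352). Col4a1 and vkg, the collagen IV chains, had 3316 and 5468 CPM and 2842 and 4920 CPM, and both were higher in replicate 2. SPARC, a collagen-binding matrix protein, had 889 and 1516 CPM. Pvr, the receptor of the PDGF/VEGF-like factors that hemocytes need for survival, had 2592 and 2354 CPM. Hml, which encodes hemolectin of the clotting reaction, had 859 and 815 CPM. The phagocytic receptors crq (852 and 637 CPM), eater (352 and 289 CPM), drpr (225 and 248 CPM) and Sr-CI (77.8 and 53.1 CPM) were all expressed.

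Per length, another phagocytic receptor of the plasmatocytes was far below them: NimC1 had a mean of 1.62 TPM-like units, against 221 for eater and 596 for crq. Its CPM was 2.85 and 1.84. The GATA factor srp, which specifies the blood lineage, had 309 and 331 CPM, and its cofactor ush had 239 and 264 CPM. The glial and plasmatocyte determinants gcm and gcm2 were at the floor, as was NimC2.

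Genes of the other hemocyte types were at lower counts. The crystal cell factor lz had 1.31 and 1.96 CPM and the prophenoloxidase PPO2 3.17 and 6.13 CPM. In the lamellocyte list PPO3 reached 11.9 and 19.9 CPM, ItgaPS4, an integrin chain, 4.16 and 4.05 CPM, and atilla, a surface marker, 0.657 and 0.981 CPM. All of these were below 20 CPM in both libraries. The progenitor genes Tep4 (373 and 292 CPM), dome (74.6 and 91.3 CPM) and shg, which encodes E-cadherin (58.6 and 55.04 CPM), were expressed, and kn, the EBF factor of the hemocyte niche, had 2.41 and 2.82 CPM.

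Genes of patterning and of the gut were silent. All 6 Hox genes of the table were at the floor, 4 of them (Abd-B, lab, pb and Scr) without a count, and Antp reached 2 counts in each library. None of 13 segmentation genes was expressed and 11 were at the floor, among them eve, en and inv with no count. The midgut list held 9 digestive enzyme genes, all at the floor, and 8 had no count, including both amylases Amy-p and Amy-d and the serine proteases Jon65Ai and Jon99Cii. Of 10 fat body genes only apolpp, the precursor of the lipid carrier lipophorin, was expressed (6.24 and 5.15 CPM), and the storage proteins Lsp2 and Lsp1alpha had no count.

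Some genes that serve as markers of other tissues were expressed. The gene elav, which encodes an RNA-binding protein used as a marker of neurons, had 86.5 and 71.0 CPM, and brp, a protein of the presynaptic active zone, had 14.2 and 16.3 CPM, although 8 of 15 neuronal genes were at the floor and nSyb, the neuronal synaptobrevin, had 1 count in each library. In the eye list norpA, the phospholipase C of phototransduction, had 166 and 144 CPM, while the opsins ninaE, Rh3 and Rh6 had none. Mef2, a myogenic transcription factor, had 55.3 and 64.0 CPM beside Mhc, the muscle myosin heavy chain, at 0.438 and 1.23 CPM. The glial list had nrv2, a subunit of the sodium pump, at 228 and 194 CPM and the determinant repo at the floor.

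The remaining lineage lists were mixed. Of 18 muscle genes 10 were expressed, led per length by Tm1, a tropomyosin (486 and 426 CPM), and TpnC73F, a troponin C, had no count. Of 8 testis genes 4 were expressed, led per length by mia (33.1 and 30.6 CPM), while aly and tomb had no count. Of 5 tracheal and epidermal genes 2 were expressed, grh, an epidermal transcription factor (12.8 and 15.7 CPM), and vg (1.97 and 1.96 CPM). Chemosensory receptors were largely silent, with 7 of 47 odorant receptor genes, 6 of 31 gustatory and 10 of 47 ionotropic receptor genes expressed.

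Of 8 female germline genes 5 were expressed, and so were most small RNA genes, several of which are known from the germline. Per length grk, the TGF-alpha-like ligand of the oocyte (29.01 and 26.0 CPM), led the female germline list with 36.4 TPM-like units, before osk with 10.9. The Argonautes of the ping-pong cycle aub (92.6 and 79.1 CPM) and AGO3 (104.7 and 92.8 CPM) were expressed, piwi had 28.9 and 22.1 CPM, and armi, a helicase of piRNA biogenesis, had 348 and 306 CPM. The gene osk, which builds the germ plasm, had 15.98 and 11.4 CPM, bam 1.42 and 0.736 CPM, and bcd none. Only 2 of 19 small RNA genes, qin and tej, were at the floor. AGO2, the Argonaute of RNA interference, was the highest of the list per length, with 1040 and 973 CPM, and all control cells had received dsRNA.

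Sex determination and dosage compensation genes were expressed with 1 exception in 12. Sxl, the switch gene that is spliced in a sex-specific manner, had 218 and 186 CPM, and msl-2, which encodes the limiting subunit of the male dosage compensation complex, 108 and 109 CPM. Gene counts do not separate the sex-specific isoforms. The noncoding RNA roX2 of that complex had 74.3 and 55.7 CPM, and roX1 1.86 and 2.08 CPM. The exception was dsx, the last gene of the sex determination pathway, with 0.547 and 0.245 CPM. X-linked expressed genes (1255) had a median level per length of 0.648 times that of 5945 autosomal genes in replicate 1 and 0.756 times in replicate 2. On the fourth chromosome, 69 of 90 genes were expressed (76.7%), with a median of 126 and 95.8 TPM-like units and a median exon GC content of 36.4%. The part of GC content in these ratios was not tested.

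**Figure D3:**
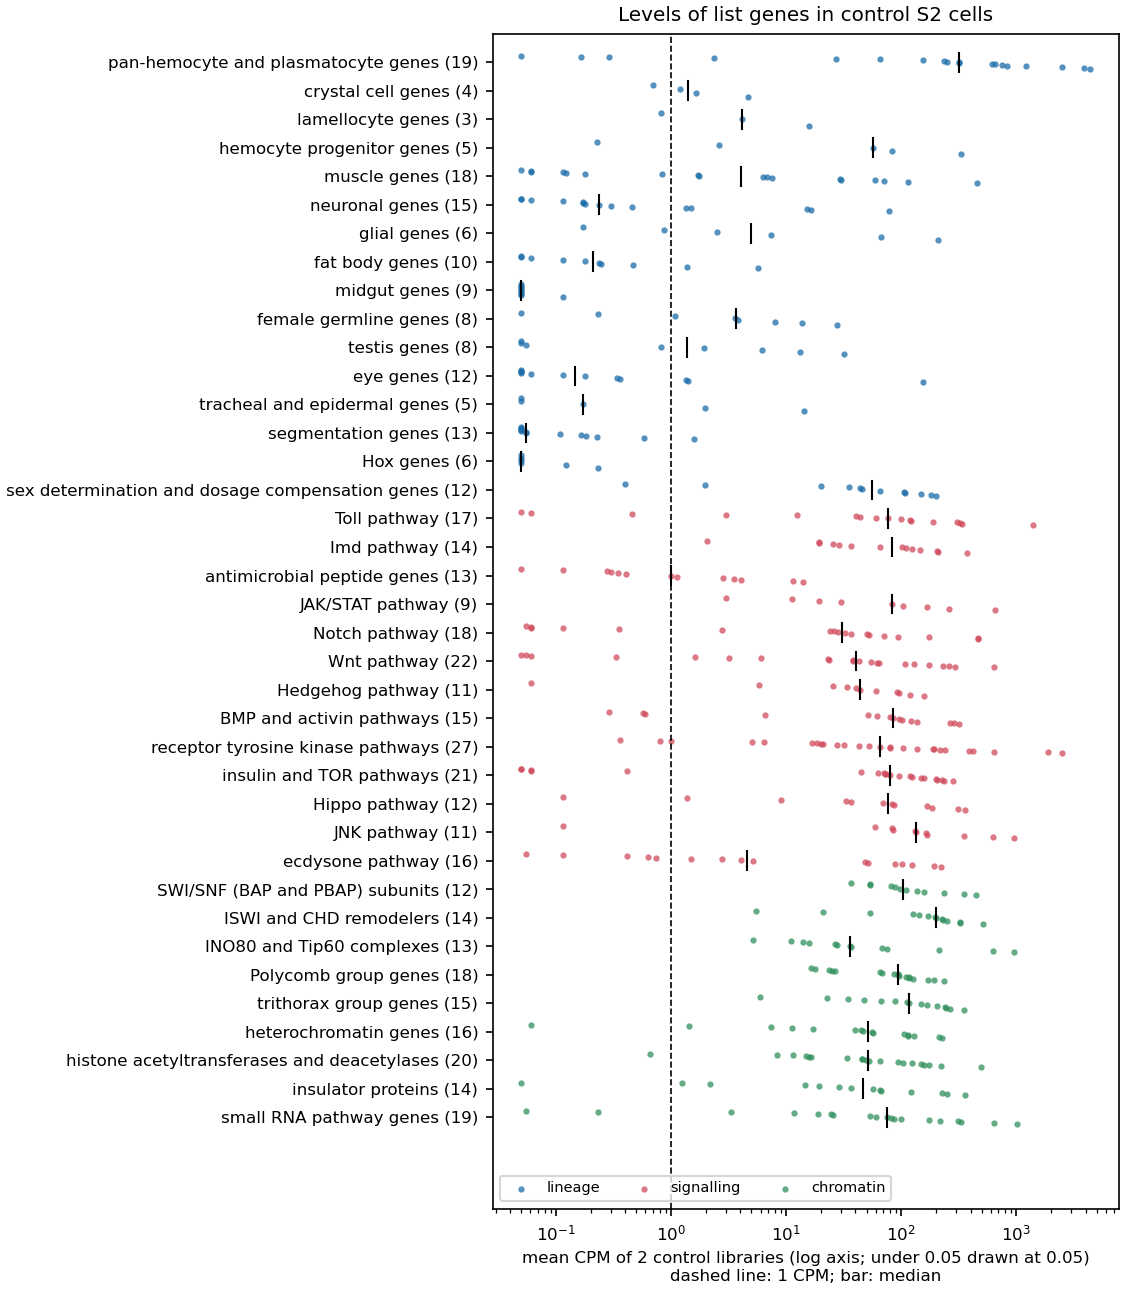
Mean CPM of the 2 control libraries (x axis, log scale, values under 0.05 drawn at 0.05) for each member of the lineage (blue), signalling (red) and chromatin lists (green), with the number of members in parentheses. Black bars are medians and the dashed line is at 1 CPM. The hemocyte list has a median of 320.2 CPM, the Hox and midgut genes lie at the left edge, and nearly all chromatin genes are right of the line.

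In the signalling lists 167 of 206 genes were expressed, 71 of them at 100 CPM or more, and 22 were at the floor. The share is given by the place of the product in its pathway, for the genes assigned as ligand, receptor or intracellular component. The other signalling genes of the lists had no such role and are not counted here. Among them were the E(spl) target genes and the kinase fj, several of which were at the floor. All 79 intracellular components were expressed, with a median of 119 CPM, as were 21 of 27 receptors (median 43.5 CPM over all receptors) and 19 of 30 ligands (median 8.81 CPM over all ligands). The background over all genes of the table was 58.8%. The order of the medians was the same per length, with 57.0 TPM-like units for intracellular components, 25.03 for receptors and 9.55 for ligands.

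**Figure D4:**
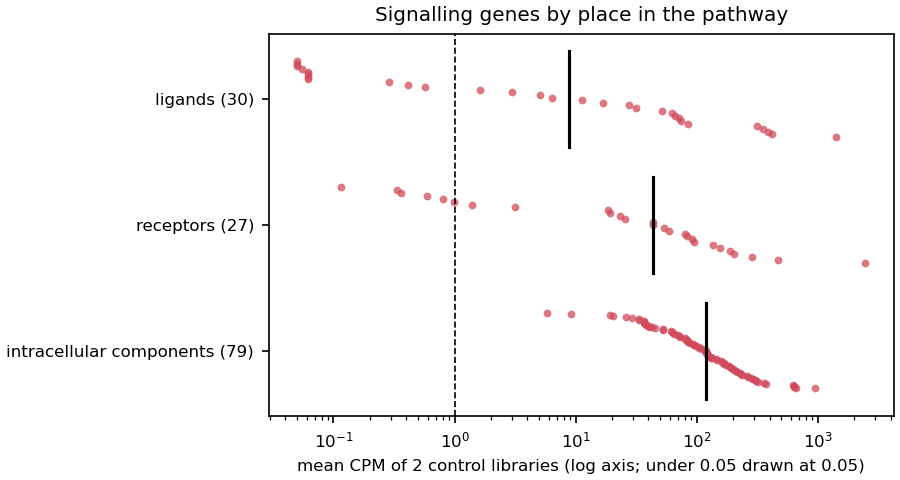
Mean CPM of the 2 control libraries (x axis, log scale, values under 0.05 drawn at 0.05) for 30 ligands, 27 receptors and 79 intracellular components of the signalling lists. Black bars are the medians of 8.81, 43.5 and 119 CPM, and the dashed line is at 1 CPM.

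Among the ligands, spz, which activates the Toll receptor, was the highest per length (1358 TPM-like units), with 1551 and 1268 CPM. Pvf2 (413 and 366 CPM), a ligand of Pvr, egr (358 and 344 CPM), the TNF of the fly, spi (444 and 390 CPM), an EGF-like ligand, and myo, also called myoglianin (337 and 294 CPM), were also expressed. The ligands at the floor included hh with 1 count in all, the insulin-like Ilp2 and Ilp3 with none, and the Wnt genes Wnt2, Wnt6 and Wnt10. The main BMP, dpp, had 0.657 and 0.490 CPM, whereas its relative gbb had 35.2 and 68.3 CPM.

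The receptors divided within families. Per length Pvr had a mean level of 846 TPM-like units and Egfr, the EGF receptor, 0.262 (0.985 and 0.613 CPM), while its ligand spi was expressed. In the BMP family babo (291 and 287 CPM), put (139 and 133 CPM) and tkv (86.8 and 72.2 CPM) were expressed, and wit had 0.328 and 0.858 CPM. Of the Wnt receptors, fz4 had 25.03 TPM-like units (44.2 and 42.2 CPM), fz2 7.11 (23.1 and 23.3 CPM) and fz3 0.206 (0.547 and 0.123 CPM). The receptors smo and ptc of the Hedgehog pathway had 102 and 82.4 CPM and 25.6 and 25.5 CPM. N, the Notch receptor, had 435 and 497 CPM, and of its E(spl) target genes mbeta alone was expressed (2.19 and 3.31 CPM) while the 5 others were under 0.5 CPM.

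The Imd and Toll pathways activate NF-kappaB factors in response to microbes. All 14 Imd genes were expressed, per length from the amidase PGRP-LB (2.61 TPM-like units) to the kinase subunit key (336), which was above the NF-kappaB factor Rel (242; 409 and 336 CPM). Expressed were also 14 of 17 Toll genes, with the NF-kappaB factors Dif (341 and 304 CPM) and dl (307 and 302 CPM). The genes psh, nec and SPE, which act upstream of spz in the extracellular cascade, were under 0.6 CPM. Of 13 antimicrobial peptide genes only 5 were expressed and none exceeded 20 CPM. CecA1 had 17.1 and 11.2 CPM, AttB 10.3 and 12.5 CPM, and Def no count. Copies such as CecA1 and CecA2 are similar, so reads may be split between them.

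All 9 JAK/STAT genes were expressed, with Stat92E at 680 and 633 CPM and its feedback inhibitor Socs36E at 269 and 256 CPM. Per length the JNK list was led by the ligand egr (369 TPM-like units), before the kinase msn (317; 941 and 964 CPM) and the AP-1 factor kay (183; 640 and 615 CPM). The inhibitor sty (789 TPM-like units; 2003 and 1767 CPM) followed Pvr (846) among the receptor tyrosine kinase genes. In the ecdysone list EcR (97.2 and 107.4 CPM) and its partner usp (41.2 and 61.4 CPM) were expressed, while the steroid-synthesis gene sad was at the floor and dib had 3.07 and 2.45 CPM. Ilp6 (76.0 and 71.3 CPM) was the only one of 6 insulin-like genes of the list above 1 CPM.

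The developmental pathways were led by members of different roles. Of 22 Wnt pathway genes 18 were expressed, led per length by the beta-catenin arm (408 TPM-like units; 609 and 670 CPM). Of 11 Hedgehog genes 10 were expressed, led per length by the receptor boi (70.5 TPM-like units), and the transcription factor ci had 6.02 and 5.52 CPM. In the Hippo list 11 of 12 were expressed, with the transcription factor sd at 380.3 and 342 CPM, and the kinase fj at the floor. Of 15 BMP and activin genes 12 were expressed, led per length by the ligand myo (181 TPM-like units) and the receptor babo (129).

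The chromatin lists had the largest share of expressed genes of the lineage, signalling and chromatin lists. Of 141 genes 134 were expressed, 59 at 100 CPM or more, and 4 were at the floor. All 12 SWI/SNF subunits were expressed, per length from e(y)3 (27.0 TPM-like units) to brm itself (182; 449 and 448 CPM). The subunit osa, which defines the BAP complex, had 299 and 405 CPM, and polybromo and Bap170, which define PBAP, had 145 and 128 CPM and 146 and 167 CPM. The core subunit mor had 232 and 241 CPM.

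All 14 ISWI and CHD remodelers, all 13 INO80 and Tip60 genes, all 18 Polycomb group genes and all 15 trithorax group genes were expressed as well, and 19 of 20 histone acetyltransferases and deacetylases. Per length these lists were led by Nurf-38, a NURF subunit (345 TPM-like units), Nipped-A, the scaffold of the Tip60 complex (190.2), pho, a DNA-binding Polycomb group protein (186), HDAC1, a histone deacetylase (169.9), and Set1, a histone H3 methyltransferase (100.7). Pc, the chromodomain subunit of PRC1, had 24.2 and 28.8 CPM, Sce, its ubiquitin ligase, 12.3 and 20.8 CPM, and E(z), the methyltransferase of PRC2, 68.4 and 61.3 CPM. The HP1a gene, whose product binds methylated histone H3 in heterochromatin, had 232 and 218 CPM. The 7 chromatin genes below the threshold were rhi (0.766 and 2.08 CPM) and HP1e of the HP1 family, Elba1 (no count) and Elba2 (0.657 and 1.84 CPM) of the insulator proteins, the piRNA genes qin and tej, and HDAC11. Of these, rhi, qin and tej are known from the germline and the Elba genes from the embryo.

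Silent genes lay partly next to each other. Of the floor genes with a place on the main chromosomes, 1314 (32.1%) were in 184 runs of 5 or more consecutive genes of the table. The longest run held 59 histone genes and pseudogenes on chromosome 2L from 21416953 to 21538720 (121.8 kb, BDGP6 annotation), near-identical copies whose reads cannot be placed, in libraries made from poly(A) RNA. The next, with 18 genes on 3R from 6010573 to 6300738, held Osi4, Osi6, Osi7, Osi8 and Osi14 of a family of insect-specific membrane proteins, the cuticle protein gene Gasp and odorant-binding protein genes. Small noncoding RNA genes were also mostly at the floor, 179 of 209 snoRNA genes (85.6%) and 57 of 58 tRNA genes.

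Core promoters differed between silent and expressed genes. Drosophila promoters carry short elements, among them the TATA box, which lies a short distance upstream of the start and is typical of regulated genes, and the DNA replication-related element (DRE), which is bound by the factor DREF and is typical of housekeeping genes. Promoters were read from the Release 6 genome for 12407 genes, from 250 bases before to 50 after the annotated gene start, which is the most upstream start and may not be the one used in these cells. Letters are TATCGATA for the DRE, searched on both strands, TATAAA for the TATA box, TCAGTT or TCAGTC for the initiator on the sense strand and CAGCTG for an E-box on both strands.

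The DRE was found in 1.56% of the promoters of floor genes, 2.79% of genes between floor and expressed, 7.61% at 1 to 10 CPM, 17.0% at 10 to 100 CPM, 17.6% at 100 to 1000 CPM and 21.3% at 1000 CPM or more, beside 9.88% of all promoters. The share thus rose with each class. TATAAA between 45 and 15 bases before the start, a window set after the first shares were seen, went the other way, with 14.05% of floor genes, 2.93% at 10 to 100 CPM and 2.65% at 100 to 1000 CPM, but 5.51% (7 of 127) at 1000 CPM or more, beside 7.54% overall. Over the whole 300 bases and both strands it was in 44.1% of both the floor genes and the genes at 100 to 1000 CPM, so this contrast rests on the position of the motif. The initiator was in 30.9% of floor promoters and 17.0% at 10 to 100 CPM, and the E-box was most frequent at 10 to 100 CPM (25.2%, beside 17.8% overall). The GAGA motif GAGAG, on either strand, was in 33.4% of floor promoters and 24.7% at 10 to 100 CPM (30.4% overall). CTTTT on the sense strand within 6 bases of the start, as in the TCT initiator known from ribosomal protein genes, was found in 2 of 82 expressed ribosomal protein genes (2.44%), beside 1.43% overall. The annotated start may not be the one used, so a lack of the element cannot be read from this share.

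The gene lists differed in the same motifs, and also in level, with 65 of 152 lineage genes and 4 of 141 chromatin genes at the floor. The part of the level in the shares of the lists was not tested. Over all promoters the shares were 9.88% for the DRE and 7.54% for TATAAA at its position. The DRE was in 28 of 141 promoters of chromatin genes (19.9%), in 20 of 206 of signalling genes (9.71%) and in 4 of 152 of lineage genes (2.63%), with 7 of 14 for the insulator proteins. TATAAA at its position was in 25 lineage promoters (16.4%) and in 1 chromatin promoter (0.709%), with 6 of 9 midgut and 9 of 13 antimicrobial peptide genes. These are counts of letters, not of bound factors.

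**Figure D5:**
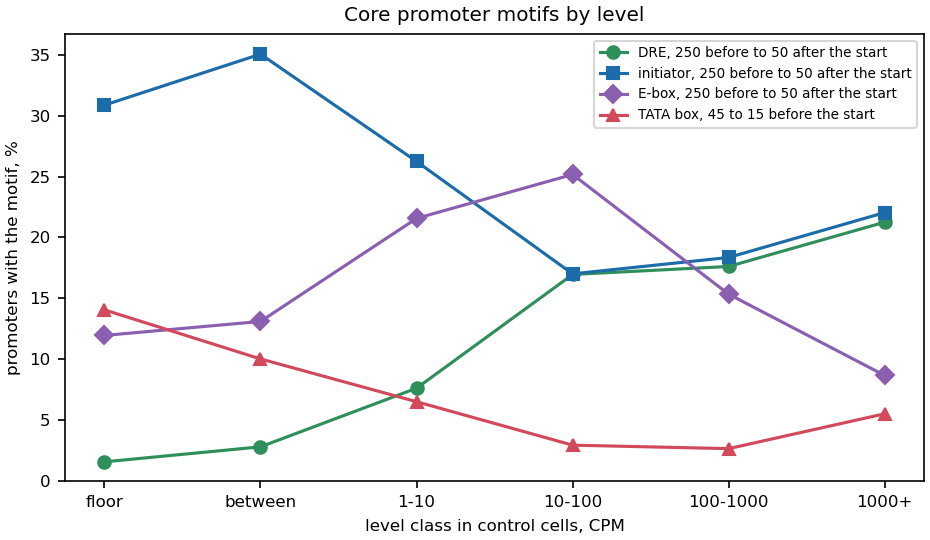
Share of promoters with a motif in percent (y axis) by level class in control cells (x axis, floor, between floor and expressed, and CPM ranges). The DRE (green) rises from 1.56 to 21.3%, the TATA box 45 to 15 bases before the start (red) falls from 14.05 to 2.65% and is 5.51% in the highest class, and the initiator (blue) and the E-box (purple) take other courses.

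The windows below run from 50 bases before to 9 after the gene start, 5′ to 3′ on the strand of the gene, with the motif in capitals, and show the elements in genes described here. In MtnA and Act5C, which were expressed, and in the opsin ninaE, the protease Jon65Ai and the storage protein Lsp2, which had no count, the capitals mark TATAAA. In the SWI/SNF subunits mor and osa and in the insulator protein Cp190 (390 and 330 CPM) they mark the DRE.
MtnA (chr3R:9784362-9784420, minus strand): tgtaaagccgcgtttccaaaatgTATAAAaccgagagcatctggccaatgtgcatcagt
Act5C (chrX:5900811-5900869, plus strand): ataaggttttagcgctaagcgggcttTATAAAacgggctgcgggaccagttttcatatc
ninaE (chr3R:19888198-19888256, minus strand): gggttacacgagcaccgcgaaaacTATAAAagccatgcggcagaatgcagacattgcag
Jon65Ai (chr3L:6054435-6054493, minus strand): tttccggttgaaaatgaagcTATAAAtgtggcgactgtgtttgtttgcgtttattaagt
Lsp2 (chr3L:12129343-12129401, plus strand): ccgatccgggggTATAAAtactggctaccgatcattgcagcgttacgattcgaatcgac
mor (chr3R:15972905-15972963, minus strand): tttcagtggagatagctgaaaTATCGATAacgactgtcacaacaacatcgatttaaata
osa (chr3R:17718342-17718400, minus strand): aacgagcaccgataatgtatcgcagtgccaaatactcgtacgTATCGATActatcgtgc
Cp190 (chr3R:15275233-15275291, minus strand): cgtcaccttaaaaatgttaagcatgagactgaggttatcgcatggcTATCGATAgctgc
The TATA motif starts between 38 and 24 bases before the start in these 5 genes, which were shown because they carry it.

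The level class was set against the occupancy of BRM, a measure that did not enter the choice of the samples. The ratio of IP to Input coverage was taken for the 11945 genes whose Input coverage was 0.5 or more in each replicate. The median ratio rose with the level in ChIP replicate 1, from 0.912 for floor genes to 1.03 at 100 to 1000 CPM and 1.08 at 1000 CPM or more, and fell in ChIP replicate 2, from 1.07 to 0.851 and 0.766. The replicates thus went in opposite directions, and no relation between level and BRM signal can be given from them.

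The comparison with the other RNA-seq groups asked whether the genes described at baseline move when BRM is depleted or replaced. All 3 comparisons share the control libraries. The targeted gene brm had 449 and 448 CPM in control cells and 182 and 181 CPM in BRM-depleted cells. The log2 change was -1.32 ± 0.26 (SE), with an adjusted p of 0.468 (edgeR quasi-likelihood test, Benjamini-Hochberg over 8165 genes). In this comparison 0% of all genes were called by edgeR and none of the 388 list genes tested, with 378 genes at an unadjusted p under 0.05, 20 genes called by DESeq2 and 0 by limma-voom. The spread in the edgeR test was pooled over all 8 libraries, those of the recombinant lines included. A fit of only the 4 libraries compared called 44 genes, 2 of them list genes, so the lack of calls depends on the pooling. Of the 7639 genes expressed in control cells, 7547 (98.8%) were expressed in BRM-depleted cells by the same rule, and 2 of the 4257 floor genes.

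In recBRM-V5 cells 18.2% of all tested genes were called (892 higher and 591 lower than in control cells; 760 and 751 with library totals in place of TMM), and 92 of 388 list genes (23.7%), 33 higher and 59 lower. Without control replicate 1 the list genes called were 36, without control replicate 2 also 36, and without BRM-depleted replicate 1 or 2 they were 53 each. In recBRM-K804R-V5 cells 10.5% of all genes were called and 47 of 388 list genes (12.1%), with 17 and 20 without control replicates 1 and 2, and 31 and 27 without recBRM-K804R-V5 replicates 1 and 2. The differences between both recombinant lines were not tested here. Of the control floor genes 126 (2.96%) were expressed in recBRM-V5 cells and 54 (1.27%) in recBRM-K804R-V5 cells, and 3399 (79.8%) had at most 3 counts in all 8 libraries.

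Metallothioneins, which bind copper and are induced by it, separated the control cells from both recombinant lines. MtnA had 195 and 225 CPM in control cells, 221 and 202 CPM in BRM-depleted cells, 6483 and 9746 CPM in recBRM-V5 cells and 7227 and 5241 CPM in recBRM-K804R-V5 cells. The change was 5.36 ± 0.34 and 4.94 ± 0.34 on the log2 scale (adjusted p = 0.000239 and 0.00033, edgeR). MtnD had no count in control and BRM-depleted cells and was at least 278-fold and 187-fold higher in the recombinant lines, against the limit of 3 counts in the shallower control library. Control cells thus lay with the BRM-depleted cells and apart from the copper-treated lines in these genes. The recombinant groups also differ from control cells in the stably transfected line and in the dsRNA. Effects of copper, the recombinant proteins and the line cannot be told apart in any gene of the recombinant groups below. The dsRNA against BRM was also given to the BRM-depleted cells, whose comparison with control cells is given above. Its part in the changes of the recombinant groups was not tested.

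The hemocyte genes of the baseline moved in different directions. NimC1 rose from 2.85 and 1.84 CPM to 361 and 196 CPM in recBRM-V5 cells (log2 change 6.97 ± 0.41, adjusted p = 0.000192, edgeR), and He, which encodes a surface glycoprotein of hemocytes, from 32.1 and 22.1 CPM to 298 and 158 CPM (3.17 ± 0.36, adjusted p = 0.00148, edgeR). Pxn, a peroxidase of the extracellular matrix, rose from 126 and 185 CPM to 397 and 414 CPM. Hml fell in recBRM-K804R-V5 cells to 95.1 and 29.7 CPM (-3.68 ± 0.49, adjusted p = 0.0035, edgeR). The fall is not particular to the mutant line in the paper, which lists Hml among genes decreased with both wild-type and mutant BRM. Groups of 2 libraries often do not overlap. The share over all genes was not counted, so nothing is drawn from the lack of overlap in these genes. Over all genes tested, 10.9% rose and 7.24% fell in recBRM-V5 cells, and 6.34% rose and 4.15% fell in recBRM-K804R-V5 cells. Of 17 tested genes of this list, 5 rose and 2 fell in recBRM-V5 cells, and 2 rose and 2 fell in recBRM-K804R-V5 cells (2 and 3 with library totals or RLE size factors).

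Signalling genes with calls in the same comparison included a ligand of Pvr and an FGF receptor. Pvf1 rose from 69.1 and 62.3 CPM to 203 and 137 CPM in recBRM-V5 cells and to 171 and 216 CPM in recBRM-K804R-V5 cells (log2 changes 1.47 ± 0.20 and 1.61 ± 0.20, adjusted p = 0.003 and 0.00286, edgeR). The FGF receptor gene htl rose from 20.9 and 15.8 CPM to 87.6 and 57.8 CPM in recBRM-V5 cells. PGRP-LE, an intracellular sensor of bacterial peptidoglycan, fell from 19.8 and 18.6 CPM to 2.97 and 5.31 CPM, and EcR from 97.2 and 107.4 CPM to 47.3 and 46.3 CPM. None of 9 JAK/STAT genes was called in either recombinant line, beside 18.2% and 10.5% of all tested genes. Their median log2 changes were -0.32 in recBRM-V5 cells and -0.11 in recBRM-K804R-V5 cells. A list of 9 genes is too short to set apart from these shares.

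The chromatin lists are read against the 7.24% of all tested genes that fell in recBRM-V5 cells. Of 18 Polycomb group genes 5 fell and 0 rose (6 and 0 with library totals; median log2 change -0.36, beside 0.00 over all genes), and of 15 trithorax group genes also 5 and 0 (6 and 0; median -0.38). Among the other lists, 4 of 15 tested heterochromatin genes and 5 of 17 small RNA genes fell. The falls were fewer in 4 lists: 3 of 20 histone acetyltransferases and deacetylases, 2 of 13 insulator proteins, 1 of 14 ISWI and CHD remodelers and 0 of 13 INO80 and Tip60 genes. In the small RNA, acetyltransferase and deacetylase, and insulator lists 1 gene each rose. Psc, a PRC1 subunit, fell from 111 and 109 CPM to 32.5 and 38.7 CPM (log2 change -1.53 ± 0.17, adjusted p = 0.00131, edgeR) and ph-p from 89.1 and 97.8 CPM to 38.8 and 47.4 CPM. The piRNA genes aub and AGO3 fell in both lines, aub to 27.5 and 27.4 CPM in recBRM-V5 cells and to 29.4 and 16.4 CPM in recBRM-K804R-V5 cells. The counts per list were not repeated with single libraries left out. Of the 12 SWI/SNF subunits brm alone was called in recBRM-V5 cells (1 other fell with library totals), at 15946 and 23852 CPM in recBRM-V5 cells and 2061 and 2006 CPM in recBRM-K804R-V5 cells, where its counts include the transcripts of the plasmid.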

How the data were processed

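Poly(A) RNA of S2 cells was sequenced by the authors in 8 strand-specific libraries. They mapped the reads with TopHat2 (the labels name dm3, the methods BDGP6) and counted them per gene with HTSeq; versions, annotation and counting options are not given in the sources used here. The deposited RNA-seq table holds raw counts, and the deposited ChIP-seq table holds coverage signal averaged per gene by the authors with ngs.plot. Neither has coordinates. All columns were used through their labels.

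CPM was computed from library totals. Symbols and exon lengths came from the BDGP6 annotation (Ensembl), which named 12428 of 12986 identifiers (95.7%); the other 558 held 8.95 and 9.00% of the counts and have no level per length. Promoter sequence came from the RefSeq Release 6 genome. Groups were tested with edgeR 4.0.16 in R 4.3.3 (TMM, filterByExpr with a minimum count of 10, quasi-likelihood, 8 libraries in 1 fit, Benjamini-Hochberg adjusted p under 0.05), with DESeq2 1.42.0 and limma-voom (limma 3.58.1) as alternatives, and the fit was tested on simulated data. Standard errors were derived from the F statistic. Python 3.11.15 with pandas 2.3.3 and scipy 1.17.1 did the rest.

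Genes were named by a rule: the 15 highest by CPM and per length, the list members at the top and the floor, the 5 largest replicate differences in each direction at 10 CPM or more, brm, and list genes called in a comparison. The members, lists and tests were chosen with earlier results of these data known. Gene copies with near-identical sequence have uncertain counts. Limits of 3 counts and Wilson intervals at a level of 95% cover counting error only.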

Additional observations from a re-analysis of the deposited data

How the results depend on the processing

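The number of expressed genes stayed within 1.5 times its value under 7 alternatives (other thresholds, scalings, levels per length and either library alone). With no count in both libraries as the limit, 2316 genes were silent. The median level of the expressed genes was 40.2 CPM at a threshold of 0.5 CPM and 48.0 CPM at 2 CPM, and 42.2 to 43.4 CPM from either library alone.

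Short lists moved with the threshold. The crystal cell list had 4 expressed genes at 0.5 CPM, and 1 at 2 CPM or per length. The neuronal list had 3 at 2 CPM or per length. The fat body list had 0 per length and up to 2 without replicate 1. The eye list had 3 at 0.5 CPM or without replicate 1, the tracheal and epidermal list 1 at 2 CPM, the segmentation list 1 at 0.5 CPM or without replicate 1, and the antimicrobial peptide list 9 per length.

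Motif shares in the shorter window (100 bases before to 50 after the start) were 0.927% (DRE, floor), 15.1% (DRE, 100 to 1000 CPM), 28.5% and 16.7% (TATAAA) and 25.7% and 13.4% (initiator). For TATAAA on the sense strand 45 to 15 bases before the start, which was added after seeing the data, they were 14.05% and 2.65%.

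BRM-depleted cells had 20 calls with DESeq2, 66 without a filter and 44 in a fit of only the 4 libraries compared, with 1, 2 and 2 list genes. In that last fit recBRM-V5 cells had 740 calls and 41 list genes. Leaving out each library in turn, the spread being pooled over groups, gave 502 to 1762 calls for recBRM-V5 and 269 to 1251 for recBRM-K804R-V5, with 36 to 90 and 17 to 69 list genes; the cause was not tested. The lowest counts came without control replicate 2 (502 genes) and without control replicate 1 (269 genes).

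The deviations of same-numbered replicates correlated with r = 0.70 between recBRM-V5 and control cells and 0.28 between recBRM-K804R-V5 and BRM-depleted cells, and with -0.40 to -0.34 for the other 4 pairs of groups. The labels name nothing that the numbers share, so the samples were not treated as paired. With the replicate block, recBRM-V5 cells had 1283 calls (71 list genes), recBRM-K804R-V5 cells 729 (43) and BRM-depleted cells 0. The named genes checked next were only those already called in the main fit. Their alternative values came from the same libraries, so agreement in direction was likely from the start. Of 528 alternative values of the named genes none changed direction and 39 passed the threshold no longer. Depth limits the silent genes: up to 3 counts per library, 0.328 and 0.368 CPM, are allowed by a count of 0.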
